A study of Mus musculus with 6 samples.

Results

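The receptor tyrosine kinase Ret, its co-receptors Gfra1, Gfra2 and Gfra3, the ligands Gdnf and Nrtn, and Cxcr4, Myb and Met, which depend on Etv4 and Etv5 in the branching ureteric bud of the kidney, were followed in the E14.5 lacrimal gland bud with and without the Pea3 transcription factors. These 9 genes were picked by symbol from the 23420 genes of the count tables, and all 9 were found there. They were named for their part in the kidney bud, with earlier results of these data known. The question was whether the genes that Etv4 and Etv5 are known to serve in the kidney bud also moved when the family was removed from the lacrimal bud. RNA-seq was available for 3 control and 3 Pea3 TKO libraries from mouse lacrimal gland epithelium taken by laser capture. The controls are titled WT, and the study describes them as Le-Cre. Its methods also count embryos heterozygous for the Pea3 family alleles among its controls in general. The Pea3 TKO embryos carried Le-cre with Pea3-/-, Ermfl/fl and Er81fl/fl, where Pea3 is Etv4, Erm is Etv5 and Er81 is Etv1. By the study's account both groups were E14.5, Cre-bearing and of mixed background. Le-Cre acts in the ocular surface ectoderm that gives the conjunctiva and the lacrimal gland, so Erm and Er81 were removed only where Cre was active, whereas Pea3 was absent from every tissue of the mutants. The labels do not say that each library came from a separate embryo, so p-values measure the spread between these libraries.

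Ret is the signalling receptor for the GDNF family of ligands. Each ligand first binds a lipid-anchored co-receptor of the Gfra family, GDNF preferring Gfra1, neurturin (Nrtn) Gfra2, artemin (Artn) Gfra3 and persephin (Pspn) Gfra4, and the complex then brings Ret molecules together. In the kidney, Gdnf comes from the metanephric mesenchyme and acts on Ret at the tips of the ureteric bud, where Ret signalling raises Etv4 and Etv5. These factors in turn maintain tip genes that include Cxcr4, the receptor for the chemokine Cxcl12, Myb, a transcription factor of progenitor cells, and Met, the receptor for hepatocyte growth factor (Hgf).

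The libraries held 14194775 to 17860140 counts, at which 3 counts, the smallest number read here as a signal, corresponded to 0.167 to 0.21 CPM. CPM are the counts scaled to a common library size after TMM normalization. The targeted genes, summed, stood at 1166 to 1383 CPM in the controls and at 107 to 217 CPM in Pea3 TKO. All 10 markers of the labelled epithelium were detected, and they summed to 4072 to 4912 CPM in controls and 6249 to 7190 CPM in Pea3 TKO. They did not all rise, with Sox10 at 387 ± 7.10 CPM in controls and 72.1 ± 30.3 CPM in Pea3 TKO (SD, n = 3 each). Pea3 TKO replicates 1 and 2 stood apart in 2 measures. The 11 mesenchyme markers, with Col1a1, Col3a1, Lum and Dcn among them, summed to 401 and 568 CPM there, against 14.3 CPM in Pea3 TKO replicate 3 and 19.2, 24.5 and 119 CPM in control replicates 1 to 3. Not all of the list followed its sum. Pdgfrb stood at 3.79, 3.49 and 3.86 CPM in controls and at 1.64, 4.97 and 2.25 CPM in Pea3 TKO replicates 1 to 3. Fgf10 had 4, 1 and 17 counts in controls and 0 in every Pea3 TKO library. The 4 Y-linked genes summed to 0.441 and 0.21 CPM in Pea3 TKO replicates 1 and 2, against 140 CPM in Pea3 TKO replicate 3 and 136 to 173 CPM in the controls. Mesenchyme content, embryo sex and genotype cannot be told apart in those libraries, and results whose call ended in the libraries that held Y-linked reads are given below with their values there. Of the endothelial markers, Tie1 and Emcn were at 0 in every library and the whole list of 6 summed to at most 7.77 CPM. The 9 neuronal and Schwann cell markers summed to 211 to 311 CPM in controls and 102 to 120 CPM in Pea3 TKO. Nearly all of this was Erbb3, a receptor that epithelia also use, at 205 to 309 and 100 to 118 CPM, and 5 of the list stayed under 1 CPM in every library.

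The sequences before the starts of Cxcr4, Myb, Gdnf and Nrtn are shown because these are the members whose expression passed the test between genotypes. They are the 250 bases upstream of the RefSeq start on GRCm38.p6, written 5′ to 3′ on the strand of the gene. Capitals mark GGAA, the core recognised by ETS proteins such as the Pea3 family, or TTCC, the same letters on the other strand. Positions are counted back from -1, the base before the start. The Cxcr4 window lies at chr1:128592300-128592549 on the minus strand, the Myb window at chr10:21160985-21161234 on the minus strand, the Gdnf window at chr15:7809798-7810047 on the plus strand, and the Nrtn window at chr17:56757549-56757798 on the minus strand.
Cxcr4: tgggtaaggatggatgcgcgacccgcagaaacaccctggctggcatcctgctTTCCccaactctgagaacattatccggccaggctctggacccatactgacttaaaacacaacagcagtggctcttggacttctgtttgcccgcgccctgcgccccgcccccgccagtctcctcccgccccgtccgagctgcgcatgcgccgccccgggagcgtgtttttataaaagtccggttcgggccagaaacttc
Myb: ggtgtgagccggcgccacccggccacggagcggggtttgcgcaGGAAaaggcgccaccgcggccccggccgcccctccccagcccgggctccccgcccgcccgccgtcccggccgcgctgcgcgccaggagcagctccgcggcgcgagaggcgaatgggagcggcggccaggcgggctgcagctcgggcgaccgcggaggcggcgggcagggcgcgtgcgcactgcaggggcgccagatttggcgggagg
Gdnf: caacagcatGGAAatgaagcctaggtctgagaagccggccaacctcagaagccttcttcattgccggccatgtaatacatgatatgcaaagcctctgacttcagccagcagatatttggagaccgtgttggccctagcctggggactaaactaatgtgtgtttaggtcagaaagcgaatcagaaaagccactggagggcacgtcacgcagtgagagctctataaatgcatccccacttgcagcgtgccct
Nrtn: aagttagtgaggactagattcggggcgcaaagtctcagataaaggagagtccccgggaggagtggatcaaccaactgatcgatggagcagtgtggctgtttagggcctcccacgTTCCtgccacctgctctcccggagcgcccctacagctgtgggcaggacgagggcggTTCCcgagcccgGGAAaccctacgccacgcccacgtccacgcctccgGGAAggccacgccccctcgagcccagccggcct

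The core was found once before Cxcr4 (its first base at -198), once before Myb (-207), once before Gdnf (-241) and 4 times before Nrtn (-136, -80, -68 and -33). Over all 32851 RefSeq promoter windows of this length, 93.4% held the core on either strand and the median window held 3, so these counts are ordinary ones. The longer PEA3 site AGGAAG, which contains the core, was in 29.5% of all windows and in none of the 4 shown. The letters ACCGGAAGT, which also contain the core, were in 0.804% of windows and in none of the 4. A second RefSeq start of Gdnf, whose window at chr15:7813477-7813726 is not printed, had 7 cores and 1 AGGAAG. Gfra1 had 3 cores and Met 2. RefSeq windows were matched for 6 of the 9 members. A match describes letters and does not show binding.

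Of the 9 members, 6 had enough counts to pass the low-count filter, Gdnf through its mutant libraries alone. By edgeR's quasi-likelihood test with Benjamini-Hochberg adjustment over all 13087 genes tested, Gdnf and Nrtn rose and Cxcr4 and Myb fell in Pea3 TKO, whereas Gfra1 and Met were not past the adjusted p threshold of 0.05. Over all genes tested, 25% were called, 13.6% higher and 11.3% lower. The groups did not overlap for Gdnf, Nrtn, Cxcr4 and Myb, as was so for 43.8% of all genes tested. Ret, Gfra2 and Gfra3 were too low for the filter, and their fits come from all 16893 genes with a count, of which 19.1% were called. In the plot of the members by library, the 4 called genes separate the genotypes and Ret does so in 2 of 3 mutant libraries. Bud epithelium was captured as tissue and not as single cells. Fewer cells of a type and less RNA per cell therefore cannot be told apart in any of these values.

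**Figure D1:**
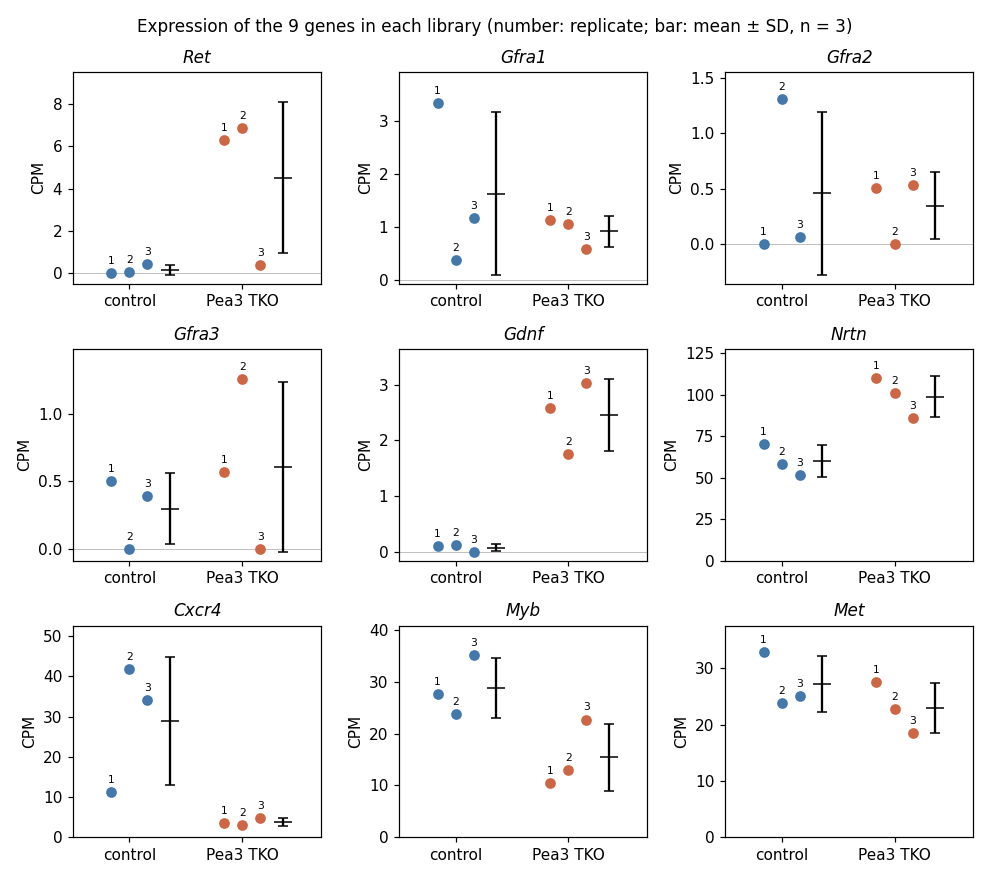
Expression of the 9 genes in CPM (vertical axes, linear) in the 3 control (blue) and 3 Pea3 TKO (orange) libraries, with the replicate number above each point and the mean ± SD at its right (n = 3). Cxcr4 and Myb lie lower and Gdnf and Nrtn higher in every Pea3 TKO library than in any control, while Ret is high in Pea3 TKO replicates 1 and 2 alone.

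Ret itself (chromosome 6, 118151745 to 118197718 on GRCm38, GENCODE M21) was nearly silent in the normal lacrimal bud. It had 0, 1 and 7 counts in control replicates 1 to 3 and 100, 98 and 7 counts in Pea3 TKO replicates 1 to 3. Pea3 TKO replicates 1 and 2 were high, whereas Pea3 TKO replicate 3 was level with control replicate 3, so the groups overlapped. In CPM, Ret averaged 0.173 ± 0.248 in controls and 4.52 ± 3.57 in Pea3 TKO (SD, n = 3 each). The summed counts, 205 against 8, gave a ratio of 26.8 at equal depth, with an exact 95% interval from 13.4 to 63 that covers counting error only. The fit without the filter gave a log2 fold change of 4.69 (SE 1.21, adjusted p = 0.0152). Leaving out Pea3 TKO replicate 1 raised the adjusted p of Ret to 0.0543, and leaving out Pea3 TKO replicate 2 raised it to 0.055. The libraries with high Ret were the same pair in which the mesenchyme markers were high and the Y-linked genes absent, and the part of either in the result was not tested. Among the libraries with Y-linked reads, 3 control and 1 Pea3 TKO, the log2 fold change was 1.23 (SE 2.25) and Ret was not called. With Y-linked expression as a covariate over all 6 libraries it was 1.19 (SE 1.33, adjusted p = 0.732). Pea3 TKO replicate 3 was the only mutant library with Y-linked reads. Both fits therefore take their genotype difference largely from that library and are not independent of each other.

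The co-receptors among the members were all low. Gfra1 (chromosome 19, 58235604 to 58455909), the partner of Gdnf, had 60, 6 and 18 counts in control replicates 1 to 3 and 18, 15 and 10 counts in Pea3 TKO. Control replicate 1 held the highest value and control replicate 2 the lowest, so the mutants lay inside the control range. Its log2 fold change was -0.83 with a 95% interval from -2.76 to 1.10 (adjusted p = 0.527), and it was 0.26 without control replicate 1. Its exons share 416 bases with the antisense gene Gm16277, and since no strand setting is stated the reads of the pair cannot be separated.

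Gfra2 (chromosome 14, 70890120 to 70979838), the partner of neurturin, had 0, 21 and 1 counts in controls and 8, 0 and 9 in Pea3 TKO. Gfra3 (chromosome 18, 34689898 to 34720387), the partner of artemin, had 9, 0 and 6 counts in controls and 9, 18 and 0 in Pea3 TKO. Each of these genes was at 0 in 1 library of each genotype, and no difference was detectable at this depth. The 95% intervals of their log2 fold changes were -4.16 to 3.39 for Gfra2 and -2.60 to 4.61 for Gfra3 (adjusted p = 0.906 and 0.716).

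Of the ligands, Gdnf (chromosome 15, 7810846 to 7837575) was almost absent from the normal bud and present at a low level in every mutant library. It had 2, 2 and 0 counts in control replicates 1 to 3, all under the 3 counts read as a signal, and 41, 25 and 51 counts in Pea3 TKO replicates 1 to 3. The highest value was in Pea3 TKO replicate 3, the library whose mesenchyme markers were lowest of all 6 at 14.3 CPM. The part of mesenchyme in the level of Gdnf was not tested. The summed counts, 117 against 4, gave a ratio of 30.6 at equal depth, with an exact 95% interval from 11.7 to 114 for counting error only. Means were 0.0787 ± 0.0684 CPM in controls and 2.45 ± 0.646 CPM in Pea3 TKO (SD, n = 3 each), and the log2 fold change was 4.80 (SE 0.96, adjusted p = 0.00659). Gdnf passed the filter only through its mutant libraries, and the edgeR fit without the filter gave 4.81 (SE 1.08, adjusted p = 0.00694). The difference was as large among the libraries with Y-linked reads, at 5.11 (SE 1.52), where with 1 mutant library it was not called. With the Y-linked covariate, which rests largely on the same mutant library, it was 5.10 (adjusted p = 0.0389).

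Nrtn (chromosome 17, 56751325 to 56757530), which encodes neurturin, was by contrast abundant in both genotypes. It stood at 70.2, 58.2 and 51.6 CPM in control replicates 1 to 3 and at 110, 101 and 86.0 CPM in Pea3 TKO replicates 1 to 3. Every mutant library was above every control, and the gap between the groups was 15.8 CPM. The means of 60.0 ± 9.41 and 99.0 ± 12.1 CPM (SD, n = 3 each) differed 1.65-fold, with a log2 fold change of 0.72 (SE 0.16, adjusted p = 0.0109). Among the libraries with Y-linked reads the log2 fold change was 0.52 (SE 0.21, adjusted p = 0.228), and with the covariate it was 0.51 (adjusted p = 0.226). The preferred co-receptor of neurturin, Gfra2, was at 0.129 ± 0.208 CPM per kilobase of exon in controls, where Nrtn was at 58.7 ± 9.20 on the same scale.

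Among the genes that Etv4 and Etv5 maintain in the ureteric bud, Cxcr4 (chromosome 1, 128588199 to 128592293) fell most. It stood at 11.2, 41.8 and 34.0 CPM in control replicates 1 to 3 and at 3.59, 3.01 and 4.80 CPM in Pea3 TKO replicates 1 to 3. Control replicate 1 was well below the other controls and still above all mutants. That library also had the highest Krt8 of the controls, at 671 CPM against 387 and 335, and the highest Cdh1, at 566 CPM against 466 and 461. The epithelial markers did not all follow. Epcam was lowest there, at 1310 CPM against 1498 and 1410, and Sox10 was level, at 387 CPM against 380 and 394. The part of these differences in the level of Cxcr4 was not tested. The means of 29.0 ± 15.9 and 3.80 ± 0.912 CPM (SD, n = 3 each) gave a 7.63-fold lower level in Pea3 TKO, with a log2 fold change of -2.93 (SE 0.45, adjusted p = 0.0019). It ranged from -3.31 without control replicate 1 to -2.57 without control replicate 2, with an adjusted p of at most 0.014. With the Y-linked covariate the log2 fold change was -2.64 (SE 0.72, adjusted p = 0.0696), and among the libraries with Y-linked reads it was -2.60 (SE 0.78, adjusted p = 0.124). Blood and endothelial cells also use Cxcr4. The 8 haematopoietic markers found in the tables summed to 116, 22.0 and 31.7 CPM in control replicates 1 to 3 and to 29.1, 90.9 and 163 CPM in Pea3 TKO replicates 1 to 3. Of these sums the globin gene Beta-s gave 94.95, 21.6 and 15.6 CPM in controls and 7.12, 87.8 and 161 CPM in Pea3 TKO. The macrophage gene Csf1r gave 10.9, 0 and 7.46 CPM in controls and 4.10, 0.7 and 0 CPM in Pea3 TKO. Other genes of that list went both ways by mean, Cd68 from 1.38 to 3.15 CPM and Laptm5 from 2.68 to 1.93 CPM. The endothelial list summed to 3.40, 2.18 and 3.21 CPM in controls and to 2.52, 7.77 and 0.178 CPM in Pea3 TKO. Within it Pecam1 was at 0, 1.99 and 3.21 CPM in controls and 1.07, 0.49 and 0 CPM in Pea3 TKO. Kdr went the other way, at 0 in every control and at 1.39, 2.38 and 0 CPM in Pea3 TKO. The part of either cell type in the level of Cxcr4 was not tested.

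Myb (chromosome 10, 21124935 to 21160984) fell less and less surely. It stood at 27.6, 23.8 and 35.1 CPM in control replicates 1 to 3 and at 10.5, 13.0 and 22.7 CPM in Pea3 TKO replicates 1 to 3. The groups did not overlap, but Pea3 TKO replicate 3 came within 1.09 CPM of the lowest control. The means of 28.8 ± 5.78 and 15.4 ± 6.42 CPM (SD, n = 3 each) differed 1.87-fold, and the log2 fold change of -0.91 (SE 0.295) had an adjusted p of 0.0488, just inside the threshold. Leaving out any library other than Pea3 TKO replicate 3 took it past the threshold, to adjusted p-values from 0.0642 to 0.162, and without Pea3 TKO replicate 3 the log2 fold change was -1.29 (adjusted p = 0.01). The remaining reads of Etv5, removed only where Cre was active, were also highest in that library. They stood at 179 CPM against 87.5 and 152 CPM in Pea3 TKO replicates 1 and 2, and their part in the level of Myb was not tested. Etv4 reads followed the same order, at 28.7 CPM against 10.8 and 19.1 CPM, but come from an allele that is null in every tissue of the mutants. Among the libraries with Y-linked reads the log2 fold change of Myb was -0.35 (adjusted p = 0.55). The exons of Myb share 559 bases with the antisense gene Gm26577.

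Met (chromosome 6, 17463800 to 17573980) was expressed at a similar CPM but was not called. It stood at 32.9, 23.8 and 25.1 CPM in controls and at 27.5, 22.8 and 18.5 CPM in Pea3 TKO. The groups overlapped, with means of 27.3 ± 4.90 and 23.0 ± 4.50 CPM (SD, n = 3 each). The log2 fold change was -0.25 with a 95% interval from -0.75 to 0.25 (adjusted p = 0.452), so a fall to the extent of Cxcr4 lay outside the interval whereas a smaller one did not. The fold changes of all 9 members are set beside those of the other pathway genes in the plot of intervals.

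**Figure D2:**
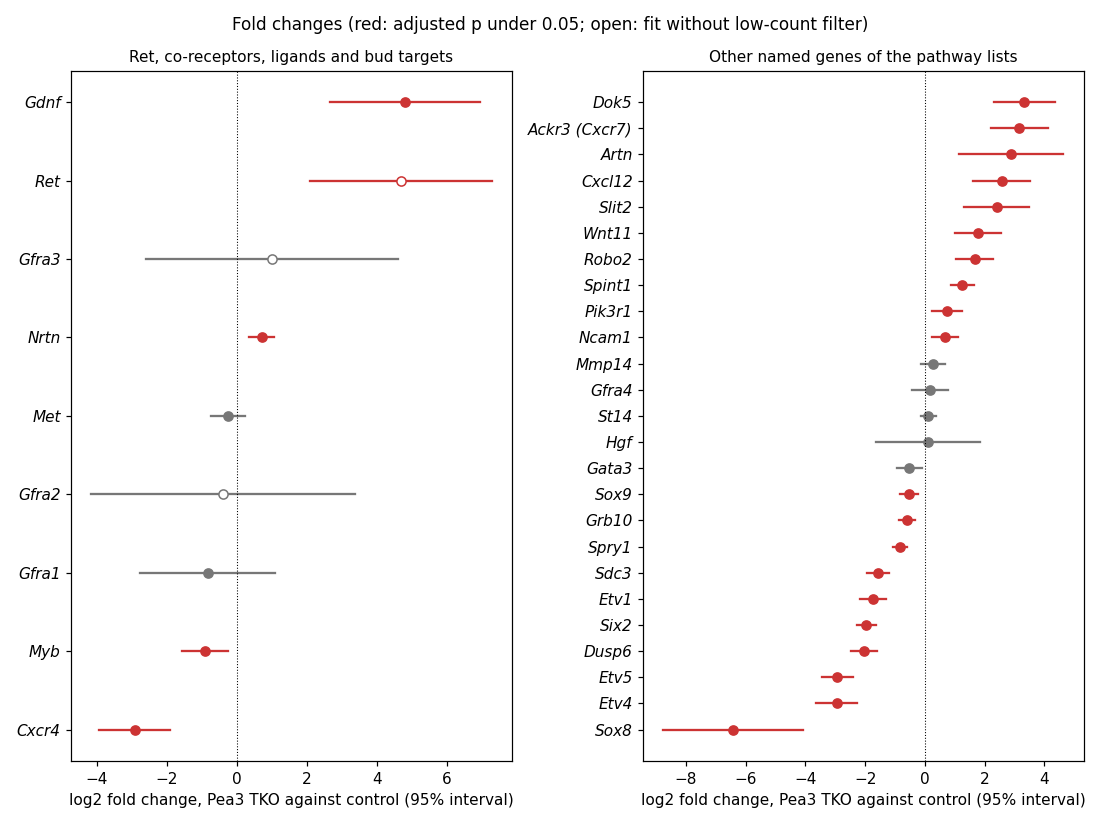
Log2 fold change of Pea3 TKO against control with its 95% interval (horizontal axes) for the 9 members (left) and for other named genes of the pathway and the targeted Etv genes (right), red where the adjusted p was under 0.05 and open where the gene was fitted without the low-count filter. Cxcr4 at -2.93 is the lowest member and Gdnf at 4.80 the highest, and the intervals of Gfra1, Gfra2, Gfra3 and Met include 0.

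Levels between genes were compared per kilobase of annotated exon. In controls the order was Nrtn at 58.7 ± 9.20, Cxcr4 at 16.0 ± 8.78, Met at 3.55 ± 0.639, Myb at 3.23 ± 0.648, Gfra1 at 0.298 ± 0.281, Gfra3 at 0.149 ± 0.132, Gfra2 at 0.129 ± 0.208, Ret at 0.0256 ± 0.0367 and Gdnf at 0.0214 ± 0.0186 CPM per kilobase (SD, n = 3 each). Met and Myb did not differ beyond their spread, nor did the 3 co-receptors among themselves, nor Ret and Gdnf. In Pea3 TKO, Nrtn remained first at 96.7 ± 11.8, and Met at 2.99 ± 0.586, Cxcr4 at 2.10 ± 0.505 and Myb at 1.73 ± 0.719 came next, with the intervals of mean ± SD of neighbours overlapping. Ret at 0.669 ± 0.528 and Gdnf at 0.667 ± 0.176 CPM per kilobase then had higher means than the 3 co-receptors. Co-receptor means ranged from 0.0977 to 0.305, with Gfra3 at 0.305 ± 0.316. In Pea3 TKO replicate 2, Gdnf at 0.476 was below Gfra3 at 0.631. The higher mean of Ret came from Pea3 TKO replicates 1 and 2. In replicate 3 Ret at 0.0613 CPM per kilobase was below Gfra1 at 0.108 and Gfra2 at 0.151. In controls Nrtn was thus the highest member and Ret, with 8 counts over 3 libraries, among the lowest.

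The other members of the GDNF family were examined from a list of 7 genes, of which 4 were tested, 2 rose and 1 fell. Of all genes tested, 13.6% were called higher and 11.3% lower. Artn, which encodes artemin, stood at 2.57, 1.18 and 0.458 CPM in controls and at 13.9, 15.7 and 2.31 CPM in Pea3 TKO replicates 1 to 3. Like Ret it was high in Pea3 TKO replicates 1 and 2 and within the control range in replicate 3. Its log2 fold change was 2.90 (SE 0.78, adjusted p = 0.0238), and among the libraries with Y-linked reads it was 0.71 (SE 1.15, adjusted p = 0.774). Sdc3, a cell-surface proteoglycan that can bind GDNF ligands, fell from 106 ± 9.12 to 36.0 ± 6.73 CPM (log2 fold change -1.56, SE 0.16, adjusted p = 2.57e-04), and Ncam1, an adhesion molecule that can serve as a GDNF receptor with Gfra1, rose from 81.5 ± 20.8 to 131 ± 23.5 CPM (0.68, SE 0.198, adjusted p = 0.0324). The call of Ncam1 was lost without any 1 of control replicates 1 and 3 and Pea3 TKO replicates 1 and 3, with adjusted p-values from 0.0629 to 0.112, and that of Artn without any 1 of control replicates 2 and 3 and Pea3 TKO replicates 1 and 2, with adjusted p-values from 0.0678 to 0.0887. Ncam1 differed by 0.88 on the log2 scale among the libraries with Y-linked reads (adjusted p = 0.122). Gfra4, the only Gfra gene above a few CPM, stood at 13.4 ± 3.99 CPM in controls and 15.2 ± 0.587 CPM in Pea3 TKO, and its log2 fold change was 0.18 with a 95% interval from -0.42 to 0.77. Its ligand gene Pspn had at most 0.933 CPM in any library.

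**Figure D3:**
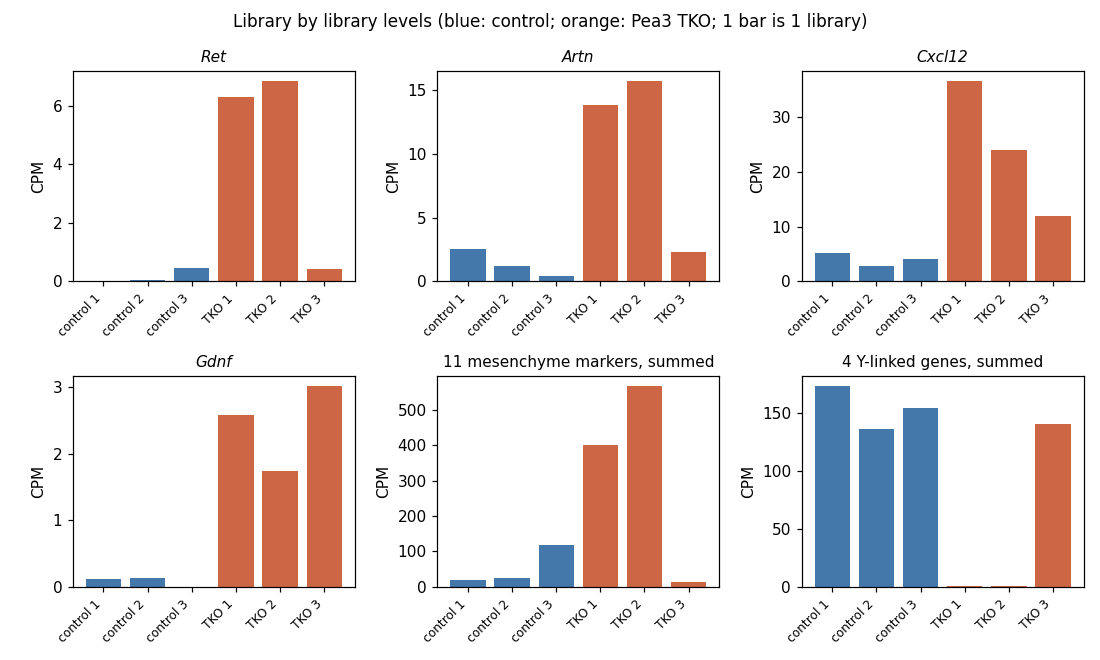
Levels in CPM (vertical axes, linear from 0) of Ret, Artn, Cxcl12 and Gdnf, and the summed levels of the mesenchyme markers and of the Y-linked genes, with 1 bar for each control (blue) or Pea3 TKO (orange) library. Ret, Artn and the mesenchyme markers are high in Pea3 TKO replicates 1 and 2 and low in replicate 3, whereas Gdnf is highest in replicate 3 at 3.02 CPM.

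Partners of Cxcr4 and Met were taken from a list of 9 genes, of which 6 were tested, 4 rose and none fell. Of all genes tested, 13.6% were called higher and 11.3% lower. Against the fall of Cxcr4, its ligand gene Cxcl12 and the gene of the other Cxcl12 receptor both rose. Cxcl12 stood at 5.24, 2.86 and 4.06 CPM in controls and at 36.7, 24.1 and 11.9 CPM in Pea3 TKO replicates 1 to 3, a log2 fold change of 2.57 (SE 0.43, adjusted p = 0.00267). All mutants lay above all controls, and the lowest mutant was the library with few mesenchyme reads. Control replicate 3, which had the most mesenchyme reads of the controls, lay between the other controls. The part of mesenchyme in the level of Cxcl12 was not tested. Among the libraries with Y-linked reads the value for Cxcl12 was 1.55 (SE 0.48, adjusted p = 0.133). Ackr3, listed under its older symbol Cxcr7, encodes a scavenging receptor that takes up Cxcl12, and it stood at 14.3, 12.6 and 3.40 CPM in controls and at 98.0, 109 and 67.6 CPM in Pea3 TKO. It rose 9.04-fold (log2 fold change 3.16, SE 0.43, adjusted p = 9.99e-04), and its log2 fold change was 2.73 (SE 0.60, adjusted p = 0.0591) among the libraries with Y-linked reads and 2.71 with the Y-linked covariate (adjusted p = 0.0183).

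Hgf, the ligand gene of Met, was low, at 1.62 ± 1.20 and 1.74 ± 1.05 CPM, and its log2 fold change of 0.10 had a 95% interval from -1.65 to 1.85. St14, which encodes matriptase, a protease that activates Hgf, was at 319 ± 8.19 and 347 ± 31.1 CPM (0.12, adjusted p = 0.495). Spint1, which encodes an inhibitor of that protease, rose from 132 ± 31.0 to 316 ± 35.0 CPM (1.25, SE 0.17, adjusted p = 0.0011). Spint1 differed by 1.13 among the libraries with Y-linked reads (adjusted p = 0.0501).

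Of 17 signal adaptors of Ret and Met, all tested, 2 rose, 1 fell and 14 did not pass, so that 17.6% were called against 25% of all genes tested, with a median log2 fold change of 0.03 against 0.01 over all genes tested. Dok5, an adaptor that binds activated Ret, was the largest of them, at 4.58, 1.43 and 2.16 CPM in controls and 23.1, 20.2 and 40.3 CPM in Pea3 TKO (log2 fold change 3.34, SE 0.45, adjusted p = 9.86e-04). It was highest in Pea3 TKO replicate 3, where Ret was at 7 counts, and its log2 fold change among the libraries with Y-linked reads was 3.88 (adjusted p = 0.0171). Grb10, an adaptor that dampens receptor tyrosine kinases, fell from 626 ± 52.9 to 415 ± 41.3 CPM (-0.595, adjusted p = 0.00657), and Pik3r1, a regulatory subunit of PI3 kinase, rose by 0.75 (SE 0.23, adjusted p = 0.0363). The call of Pik3r1 was lost without any 1 of control replicates 2 and 3 and Pea3 TKO replicates 1 and 2, with adjusted p-values from 0.063 to 0.133. Grb10 differed by -0.51 (adjusted p = 0.0976) and Pik3r1 by 0.52 (adjusted p = 0.385) among the libraries with Y-linked reads.

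Other genes that depend on Ret signalling in the ureteric bud moved in both directions. Of 6 listed and tested, 2 rose, 3 fell and 1 did not pass, where 25% of all genes tested were called. Spry1, an inhibitor of Ret and FGF receptor signalling, fell from 275 ± 4.56 to 153 ± 8.14 CPM (-0.85, SE 0.11, adjusted p = 6.54e-04), and Dusp6, an ERK phosphatase, fell by 2.04 on the log2 scale. Wnt11, a Wnt ligand of the ureteric tip, went the other way, from 4.11 ± 1.32 to 14.2 ± 2.79 CPM (1.78, SE 0.34, adjusted p = 0.00545), with 3.79, 2.99 and 5.56 CPM in controls and 16.4, 15.0 and 11.1 CPM in Pea3 TKO. Its log2 fold change was 1.42 among the libraries with Y-linked reads (adjusted p = 0.17), and with the covariate it was also 1.42 (adjusted p = 0.11). Mmp14, a membrane metalloproteinase that the ureteric bud expresses under Etv4 and Etv5, was at 154 ± 25.5 and 187 ± 41.5 CPM (0.27, 95% interval from -0.13 to 0.67).

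Of 9 listed transcription factors that act with, upstream or downstream of Ret in the ureteric bud, 6 were too low to test. The same was so for 10333 of the 23420 genes in the count tables. Pax2 had no count in any library. Sox8, a SoxE factor that acts with Sox9 downstream of Ret in the kidney, had 299 counts over the controls and 3 over the mutants, all in Pea3 TKO replicate 2. The rate was 95.1-fold lower, with an exact 95% interval from 32.2 to 464 for counting error only (adjusted p = 0.00247 by the edgeR test). Sox8 passed the filter only through its control libraries, and the fit without the filter gave a log2 fold change of -6.41. Sox9 fell by 0.53 on the log2 scale (adjusted p = 0.0166), a call lost without control replicate 2 (adjusted p = 0.0669) or without Pea3 TKO replicate 2 (adjusted p = 0.0716). Sox9 differed by -0.46 among the libraries with Y-linked reads (adjusted p = 0.197). Gata3, which maintains Ret in the kidney duct, was at 93.0 ± 20.3 and 64.8 ± 11.1 CPM (-0.53, adjusted p = 0.065). The adjusted p of Gata3 was 0.0406 without control replicate 3 and 0.0425 without Pea3 TKO replicate 3.

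Regulators of Gdnf in kidney mesenchyme were measured as 17 genes, of which 11 were tested, 3 rose and 4 fell. Of all genes tested, 13.6% were called higher and 11.3% lower. The homeobox factor Six2, which promotes Gdnf expression in the kidney, fell from 370 ± 62.3 to 94.9 ± 7.26 CPM (log2 fold change -1.97, SE 0.14, adjusted p = 3.88e-05), while Gdnf was higher. Slit2 and Robo2, a secreted guidance cue and its receptor that confine Gdnf to the posterior mesenchyme, both rose. Robo2 stood at 11.05, 20.2 and 25.0 CPM in controls and 48.3, 72.6 and 57.3 CPM in Pea3 TKO (log2 fold change 1.66, SE 0.28, adjusted p = 0.0029). Slit2 stood at 10.5, 7.22 and 2.81 CPM in controls and 43.6, 47.7 and 18.1 CPM in Pea3 TKO (2.40, SE 0.49, adjusted p = 0.00691). It was lowest among the mutants in the library with few mesenchyme reads. Among the controls it was lowest in control replicate 3, which had the most mesenchyme reads of them. The part of mesenchyme in the level of Slit2 was not tested. Among the libraries with Y-linked reads the log2 fold changes were 1.61 for Robo2 (adjusted p = 0.0795) and 1.39 for Slit2 (adjusted p = 0.266), and with the covariate Slit2 was at 1.36 (adjusted p = 0.192). Over all the pathway lists, 24 of 47 tested genes were called, 13 higher and 11 lower, or 51.1% against 25% of all genes tested. The lists were chosen with earlier results of these data known, so this share is given as a description.

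The genes closest to each called or tested target in their profile over the 6 libraries were found by the root mean square difference of log2(CPM + 1), after the mean of each gene was removed. Closest to Cxcr4 were Gm10432 at 0.267 and Sox8 at 0.305, where Cxcr4 itself ranged over 3.41 on this log2 scale. Closest to Myb were Hook1 at 0.0837 and Naa16 at 0.137, and closest to Met were Arvcf at 0.0513 and Rbks at 0.0683.

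The plot of the members under every setting shows which fold changes held their place. Gdnf stayed between 4.28 and 5.20 when any library was left out, with an adjusted p of at most 0.0288, and Nrtn stayed between 0.61 and 0.85, with an adjusted p of at most 0.0476. Both Y-linked settings, which rest largely on Pea3 TKO replicate 3 as the mutant, brought Ret from 4.69 to near 1.2 and moved Myb toward 0. With the covariate Cxcr4 was at -2.64 (adjusted p = 0.0696) and Nrtn at 0.51 (adjusted p = 0.226), and Gdnf was the only member called. In that setting 798 genes of the whole series were called in place of 3268.

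**Figure D4:**
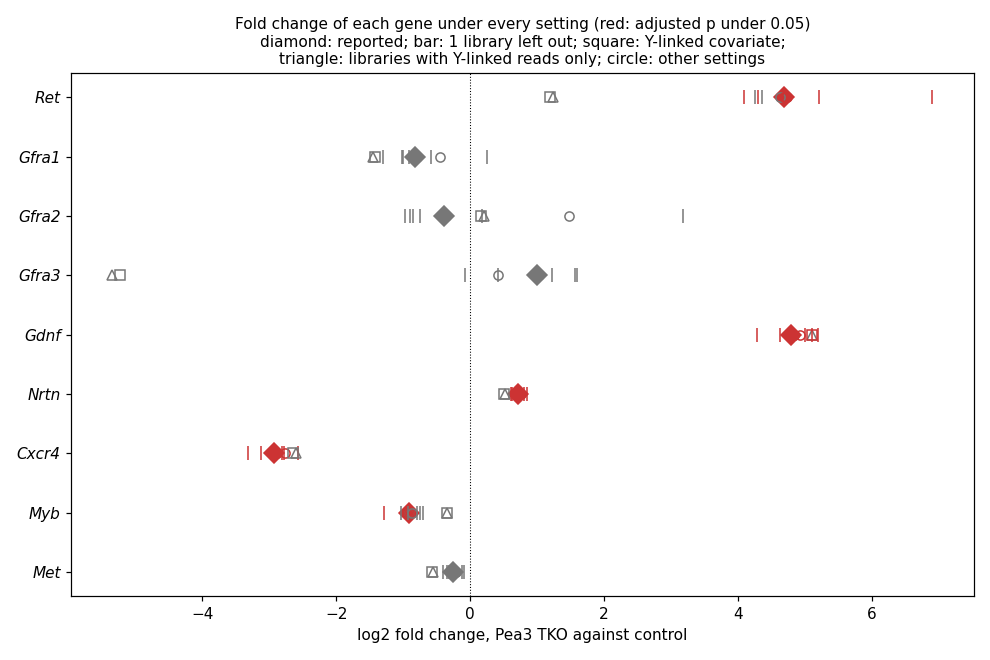
Log2 fold change of Pea3 TKO against control (horizontal axis) for each of the 9 members as reported (diamond), with 1 library left out (vertical bar), with a Y-linked covariate (square), among libraries with Y-linked reads only (triangle) and under other settings (circle), red where the adjusted p was under 0.05. Gdnf, Nrtn and Cxcr4 keep their side of 0 in every setting, Gfra1, Gfra2 and Gfra3 do not, and Ret shifts from 4.69 to 1.19 with the covariate.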

How the data were processed

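Total RNA of laser-captured lacrimal gland epithelium was amplified and sequenced by the authors, and the deposited files hold unnormalized read counts by gene symbol for each of 6 libraries. The submitters' processing notes name bcl2fastq 2.17, STAR 2.5.2b, featureCounts 1.5.0-p3, DESeq and mm10, and the annotation and strand setting are not given in the sources used here. Genes were filtered with filterByExpr, normalized by TMM and tested with the edgeR 4.0.16 quasi-likelihood test (R 4.3.3) on genotype alone, with Benjamini-Hochberg adjustment over 13087 genes. The SE of a log2 fold change was taken as its size over the root of the F statistic. An exact permutation of 3 against 3 libraries cannot give a p below 0.1, so none was run. Replicates were not copies of each other (chi-square per degree of freedom of at least 15.5). Positions and exon lengths, the union over all transcripts, are from GENCODE M21 by symbol, and promoters are from RefSeq.

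The members and lists were chosen with earlier results of these data known. Named genes were all members, the targeted genes, up to 3 genes with the smallest p of each list and, for Cxcr4, Myb and Met, the nearest profiles. Gfra4, Pspn, Hgf, St14, Wnt11, Mmp14, Slit2 and Pax2 were named after their values were seen. So were the markers Krt8, Cdh1, Epcam, Sox10, Pdgfrb, Fgf10, Erbb3, Csf1r, Cd68, Laptm5, Beta-s, Pecam1 and Kdr. Of the listed symbols not found in the tables, 3 were matched through RefSeq synonyms and Hbb-bt was not. Some genes that the rule names are not reported here. The scripts were tested on simulated data. Alternatives were DESeq2 1.42.0, other size factors and filters, a replicate block, a Y-linked covariate and leaving out each library. The fit on libraries with Y-linked reads (summed Y-linked CPM above 10) was added after the data were seen and assumes that its lone mutant varies like the controls. The covariate fit takes its genotype difference largely from the same mutant library.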

Additional observations from a re-analysis of the deposited data

How the results depend on the processing

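Members and series counts were refitted under 13 planned settings and 1 added later. Cxcr4, Myb, Gdnf, Nrtn and Met kept their direction in all of them, and Ret in all that gave it a value. With a Y-linked covariate, log2 fold changes were -2.64 for Cxcr4, -0.34 for Myb, 0.51 for Nrtn, 1.19 for Ret, 0.16 for Gfra2 and -5.23 for Gfra3. In that fit 1 member, 11 pathway genes and 798 genes of the series were called (504 higher, 294 lower). Among libraries with Y-linked reads only, the values were -2.60 for Cxcr4, 5.11 for Gdnf, -0.35 for Myb, 0.52 for Nrtn, 1.23 for Ret, 0.21 for Gfra2 and -5.34 for Gfra3. In all 0 members, 8 pathway genes and 597 genes were then called (315 higher, 282 lower), with fewer libraries. By edgeR 3 of 7 members tested there, Gdnf, Nrtn and Cxcr4, had an unadjusted p under 0.05, and no other tool was run on those libraries. Of the other named genes, Artn, Cxcl12, Grb10, Ncam1, Pik3r1, Slit2, Sox9 and Wnt11 lost their calls in both Y-linked fits, and Ackr3, Robo2 and Spint1 in the latter one, and the cause was not tested. Myb was -0.91 (adjusted p = 0.0502) with RLE and -0.87 (adjusted p = 0.0546) with upper-quartile size factors, and DESeq2 gave an adjusted p of 0.0182.

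With 1 library left out, Gfra1 ranged from -1.30 to 0.26, Gfra2 from -0.97 to 3.18, Gfra3 from -0.0804 to 1.60, Myb from -1.29 to -0.70, Ret from 4.09 to 6.91 and Hgf from -0.45 to 0.84. Between 3 and 4 members were called. Called genes ranged from 1948 without control replicate 3 to 3344 without control replicate 1, with 1131 to 1948 higher and 799 to 1417 lower. They were 1963 without control replicate 2 and 2072 without Pea3 TKO replicate 2.

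The replicate number as a block gave 3191 called genes, a log2 fold change of 1.47 for Gfra2 and 4.63 for Ret (adjusted p = 0.0664), and left the other members on their side of the threshold. The numbers did not pair the libraries, since same-numbered libraries deviated together with correlations of 0.145, -0.064 and 0.046 across genes. Ret, Gfra2 and Gfra3 have no value under the stricter filter. Their depth, at most 100 counts a library, and the 4 control counts of Gdnf set the precision of their ratios.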
